A study of Bos taurus with 48 samples.

Results

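IFITM and other IFI genes were described in the endometrium of cows at day 17, in pregnancy and in the oestrous cycle. The list held 9 genes, IFITM1, IFITM3, IFITM5, IFI16, IFI35, IFI44, IFI44L, IFI6 and IFI27. A probe was taken as a member when its gene name, or the symbol at the end of its description on the array, was one of these names. Of the 9 genes, 7 had a probe, 1 probe each, among 21475 probes of the array. IFI6 and IFI27 were not analysed here. Of the 7 member probes, 7 passed the filter on signal that 14695 probes passed. A further 3 probes were described on the array as similar to IFITM3 or IFITM2 under provisional gene names, and they were kept apart from the members.

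These genes are named for their response to interferon. In ruminants the elongating conceptus secretes interferon tau, a type I interferon that binds its receptor on endometrial cells and lowers the release of the hormone that would end the corpus luteum. IFITM1 and IFITM3 are small membrane proteins that restrict the entry of viruses into cells, while IFITM5, a member of the same family, is known from bone-forming osteoblasts. IFI16 is a sensor of DNA, IFI44 and IFI44L are related cytoplasmic proteins, and IFI35 is a leucine zipper protein that pairs with NMI.

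The cows were lactating Holstein-Friesians of mixed ancestry, from New Zealand and North America, whose oestrous cycles had been synchronised. Of these, 12 were pregnant, having received an embryo on day 7, while 10 were cyclic. How ancestry was spread over the groups was not given in the sources used here. Caruncular endometrium, the site of later attachment of the placenta, and intercaruncular endometrium, which carries the uterine glands, were taken from each cow at slaughter. Pregnant cows were labelled by the size of the embryo, with 7 large (over 20 cm and 75 mg) and 5 small (under 20 cm and 40 mg), and as fertile (6) or sub-fertile (6). Of the 6 fertile cows 3 had a large embryo, as had 4 of the 6 sub-fertile cows. No age was given in the sources used here. The labels give an embryo transfer for the 12 pregnant cows alone, so that pregnancy and the transfer itself cannot be told apart.

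Agilent arrays of 60-base probes compared each Cy5-labelled sample with 1 common reference, the Cy3-labelled pool of samples, with no dye swap. A value is the log2 ratio of sample to pool, so that 0 is the level of the pool and a difference of 1 is 2-fold. The values of a probe compare samples with each other and say nothing of one gene's level against another's. In tissue samples, fewer cells of a type and less RNA per cell cannot be told apart.

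The probes are shown because the several IFITM probes could have measured one another's transcripts. The last 30 bases of each are given 5′ to 3′, or all 60 for the probes of IFI44 and A_73_102682, as listed by the study. Capitals mark the polyadenylation signals AATAAA and ATTAAA, hexamers found near the 3′ end of many messages.
IFITM1: acacacagatttgtcaaccaactgaatcaa
IFITM3: ccgtgaAATAAAaggagggtttgtgtgtga
IFITM5: tcaccagcctcggctgttcaATTAAAaaga
A_73_102682: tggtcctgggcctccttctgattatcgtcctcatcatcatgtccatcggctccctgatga
A_73_111848: ggtgctgcaaggaccctgacccctggtgtg
IFI44: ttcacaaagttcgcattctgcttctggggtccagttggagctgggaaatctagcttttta
IFI44L: attctaaagttcactggatagctgaagaag

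Over the whole 60 bases, the longest run shared by any of 10 pairs of the 5 IFITM probes with a sequence was 7 bases. That search set probe against probe, and not a probe against the transcripts of the other genes. Whether a probe measured another gene's transcript was therefore not tested. AATAAA was found in the probe of IFITM3 and ATTAAA in that of IFITM5. The study listed sequences for transcripts it called different between pregnant and cyclic animals, and not for the whole array. Of 1689 probes whose 60 bases were listed, 13.6% held AATAAA, 4.6% held ATTAAA and 17.9% held either. These were searched on the strand of the probe as listed.

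The probe of IFITM3 was the one named IFITM3 by the array's design. In the RefSeq table used here its gene has a provisional symbol, with IFITM3 as a synonym. A_73_111848 was described as similar to IFITM3, and its gene number is that of IFITM2 in the RefSeq table (assembly ARS-UCD2.0). In the order of genes in that table, IFI44 and IFI44L are neighbours on chromosome 3 with 0 protein-coding genes between them. IFITM5 and the gene of A_73_111848 are neighbours on chromosome 11, also with 0 between them. IFITM1 and IFITM3 lie on chromosome 29 with 1 protein-coding gene between them, the gene of the remaining related probe, A_73_120228. That probe was well above background in the sample channel of 1 of 48 arrays and was not tested. The probes of IFI16 and IFI35 matched genes on chromosomes 3 and 19.

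The 44 samples were measured on 48 arrays, since 4 caruncular samples were hybridised again, and between 68.8% and 84.0% of the spots of an array were well above background. Each of the 7 member probes was well above background in both channels of all 48 arrays. For IFITM3 and IFI16 the first array of 1 cyclic caruncular sample was rejected as an outlying spot, and the repeat array alone was used. Over 26 comparisons of a member between the first and the repeat array of a sample, the difference had a median of 0.16 and reached 0.47 on the log2 scale, for IFITM5 in 1 cyclic cow. The arrays lay on 12 slides of 4, numbered here from 1 to 12, and 4 cyclic intercaruncular samples shared slide 4. On 712 of 14695 probes (4.85%) these 4 samples lay wholly above or wholly below the other 6 cyclic intercaruncular samples, against 246 probes (1.67%) for the 4 cyclic samples of slide 3. Slide 12, with the intercaruncular samples of 4 pregnant cows, stood apart from the other 8 pregnant samples on 453 probes (3.08%). The other 5 slides with 4 samples of 1 state stood apart on at most 1.11% of probes. Results that rest on slides 4 and 12 are given below with and without them.

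Pregnancy was first compared with the cyclic state in caruncular endometrium. All 7 members were up-regulated in pregnant cows by the threshold of at least 1.5-fold and an adjusted p under 0.05 in limma, where 5.77% of all probes tested were called higher. The median change of the 7 members was 2.63 on the log2 scale, beside -0.04 over all probes tested. For 7 of 7 members, every pregnant cow lay above every cyclic cow, which held for 1.59% of all probes tested. The changes ran from 2.31-fold for IFITM5 to 10.9-fold for IFI44.

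**Figure D1:**
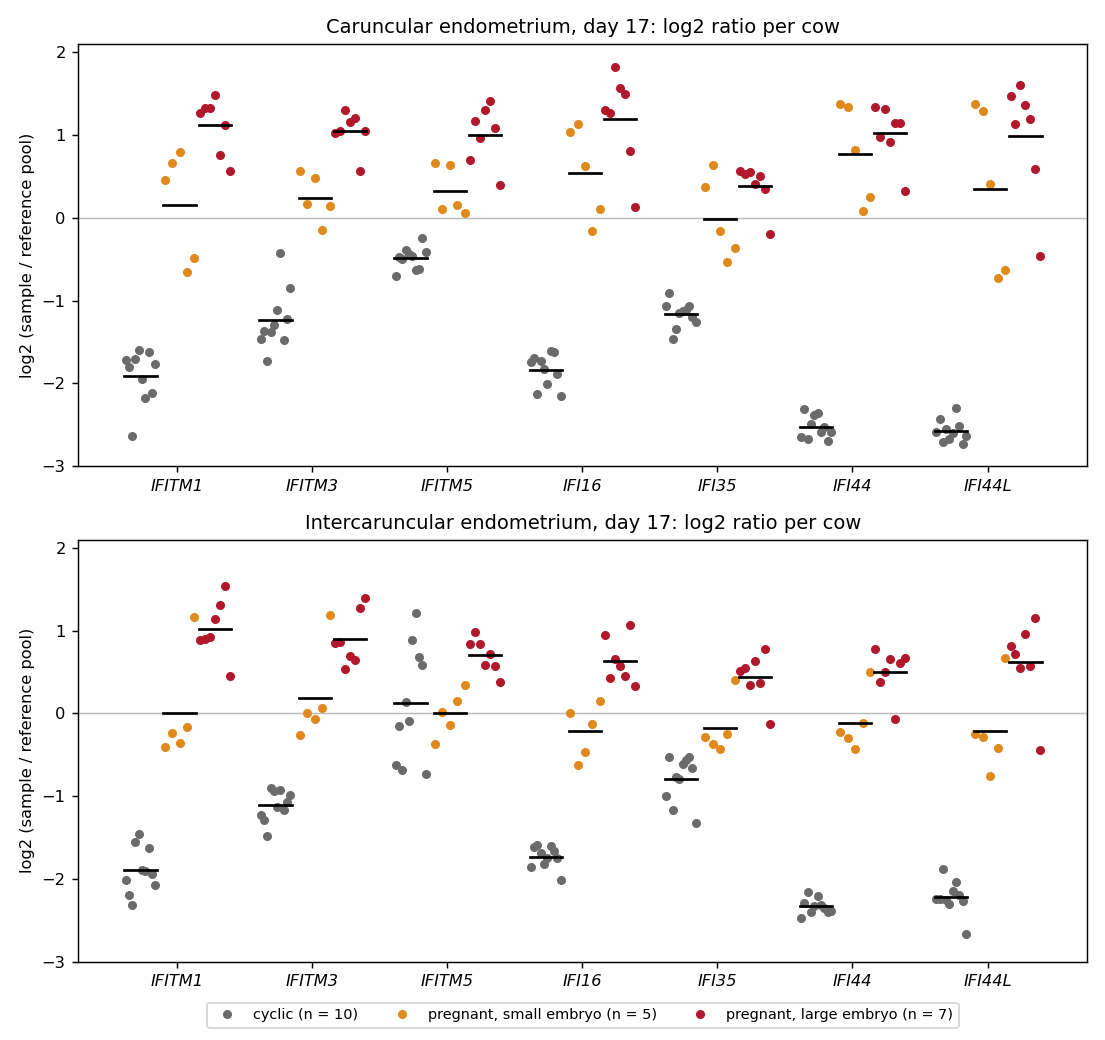
Log2 ratio of each cow's sample to the reference pool (vertical axis) for the 7 member probes (horizontal axis) in caruncular (top) and intercaruncular (bottom) endometrium. Points are cows, grey for cyclic (n = 10), orange for pregnant with a small embryo (n = 5) and red for pregnant with a large embryo (n = 7), and bars are group means. In caruncular tissue pregnant and cyclic cows do not overlap for any member, and in intercaruncular tissue they overlap for IFITM5 alone.

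IFITM1 had caruncular log2 ratios from -0.66 to 1.48 in pregnant cows (median 0.78) and from -2.64 to -1.60 in cyclic cows (median -1.78). The 2 groups lay 0.94 apart at their nearest cows. The level of IFITM1 was 2.63 higher in pregnant cows on the log2 scale (SE 0.23, adjusted p = 1.30e-08), a 6.18-fold change.

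IFITM3 ranged from -0.14 to 1.30 in pregnant cows (median 0.79) and from -1.74 to -0.43 in cyclic cows (median -1.33). The highest cyclic cow stood 0.29 below the lowest pregnant cow. IFITM3 changed by 1.95 on the log2 scale (SE 0.18, adjusted p = 3.79e-08), or 3.85-fold. One spot of IFITM3 was saturated, on the rejected first array that was not used for this probe.

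For IFITM5 the caruncular values ran from 0.054 to 1.41 in pregnant cows (median 0.68) and from -0.71 to -0.24 in cyclic cows (median -0.46). The cyclic cows lay close together and the lowest pregnant cow was 0.30 above the highest of them. The change was 1.21 on the log2 scale (SE 0.15, adjusted p = 3.94e-06), or 2.31-fold.

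IFI44 ranged from 0.083 to 1.37 in pregnant cows (median 1.06) and from -2.69 to -2.32 in cyclic cows (median -2.56). Its gap of 2.40 between the nearest cows of the 2 groups was the widest among the members. The change was 3.44 on the log2 scale (SE 0.15, adjusted p = 1.58e-13), or 10.9-fold.

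IFI44L, the neighbour of IFI44, ranged from -0.73 to 1.60 in pregnant cows (median 1.17) and from -2.73 to -2.30 in cyclic cows (median -2.59). It spread the most among pregnant cows (SD 0.87, n = 12), whereas IFI44 had an SD of 0.46. IFI44L changed by 3.29 on the log2 scale (SE 0.26, adjusted p = 4.57e-09), or 9.80-fold.

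IFI16, the DNA sensor, ranged from -0.16 to 1.83 in pregnant cows (median 1.08) and from -2.16 to -1.61 in cyclic cows (median -1.79), a change of 2.77 (SE 0.20, adjusted p = 7.52e-10), or 6.81-fold. IFI35 ranged from -0.54 to 0.63 (median 0.39) against -1.46 to -0.91 (median -1.14), and changed by 1.39 (SE 0.14, adjusted p = 1.01e-07), or 2.62-fold. Neither gene had a pregnant cow at or below a cyclic cow.

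When the slide entered the fit as a fixed term, 2 of the 7 members, IFI16 and IFI44, passed the threshold in caruncular tissue, where 0.361% of all probes were called higher. That fit rests on the comparison within slide 7, which held samples of 3 pregnant cows and 1 cyclic cow. Within it the members were higher in the pregnant cows by 1.22 (IFI35) to 3.50 (IFI44) on the log2 scale. On slide 10, with arrays of 2 pregnant cows and a repeat array of 1 cyclic cow, the 7 differences ran from 1.46 (IFITM5) to 3.66 (IFI44).

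The same comparison in intercaruncular endometrium called 6 of 7 members higher in pregnant cows, where 3.99% of all probes tested were called higher. The median change of the 7 members was 2.02 on the log2 scale, beside -0.01 over all probes. For the same 6 members every pregnant cow lay above every cyclic cow, which held for 0.919% of all probes. IFITM5 was the exception in both counts.

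IFITM1 ranged from -0.41 to 1.54 in pregnant cows (median 0.89) and from -2.32 to -1.46 in cyclic cows (median -1.93). The groups did not overlap, and the change was 2.49 on the log2 scale (SE 0.23, adjusted p = 4.34e-08), or 5.63-fold. IFITM3 ranged from -0.26 to 1.40 (median 0.67) against -1.48 to -0.90 (median -1.10). It changed by 1.71 (SE 0.18, adjusted p = 3.17e-07), or 3.27-fold, also without overlap.

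IFI44 lay between -0.43 and 0.77 in pregnant cows (median 0.44) and between -2.48 and -2.16 in cyclic cows (median -2.34), a change of 2.58 (SE 0.14, adjusted p = 1.58e-11), or 5.96-fold. IFI44L lay between -0.75 and 1.15 (median 0.56) against -2.66 and -1.88 (median -2.24), a change of 2.50 (SE 0.20, adjusted p = 8.63e-09), or 5.65-fold. As in caruncular tissue, both neighbours separated the groups by more than 1 unit, with gaps of 1.73 and 1.13.

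IFI16 ranged from -0.63 to 1.07 in pregnant cows (median 0.38) and from -2.02 to -1.59 in cyclic cows (median -1.72), a change of 2.02 (SE 0.16, adjusted p = 7.50e-09), or 4.05-fold. IFI35 ranged from -0.43 to 0.77 (median 0.35) against -1.32 to -0.53 (median -0.71), a change of 0.97 (SE 0.15, adjusted p = 0.000146), or 1.96-fold. The gap between the groups was narrow for IFI35, at 0.10. A fixed slide term left 5 of 7 members called in this tissue, where 0.64% of all probes were called higher, and IFI35 then did not pass (1.22, adjusted p = 0.109).

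**Figure D2:**
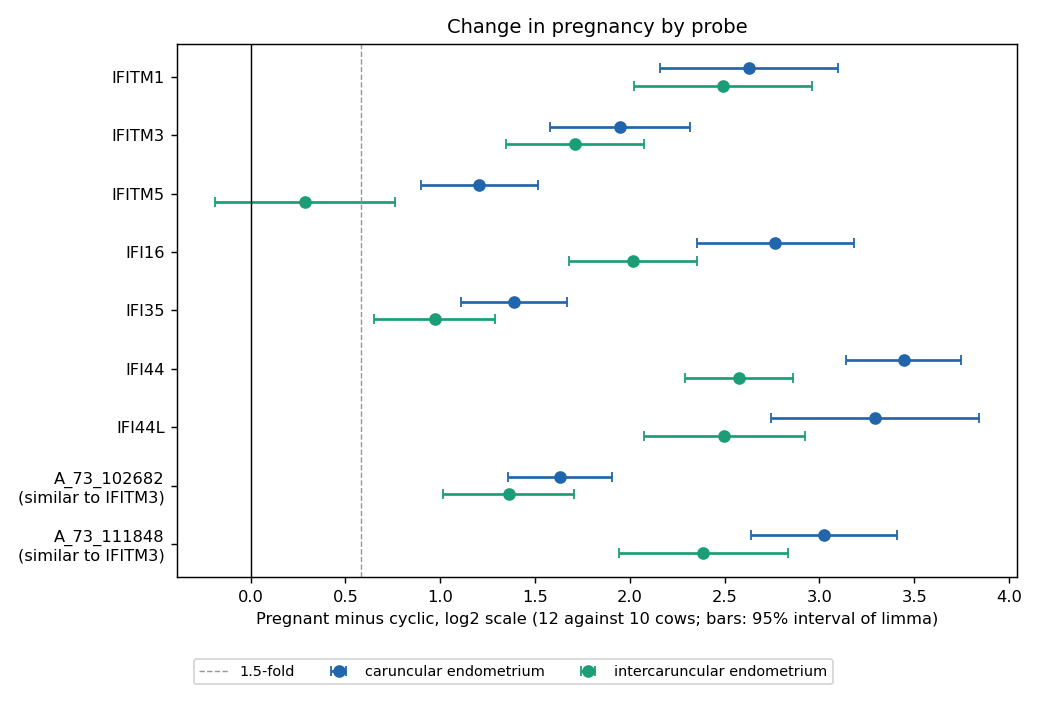
Difference between pregnant (n = 12) and cyclic (n = 10) cows on the log2 scale (horizontal axis) for the 7 members and the related probes A_73_102682 and A_73_111848 (vertical axis), in caruncular (blue) and intercaruncular (green) endometrium. Points are limma estimates, bars their 95% intervals and the dashed line 1.5-fold, and only the intercaruncular interval of IFITM5, from -0.18 to 0.76, includes 0.

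IFITM5 ranged from -0.37 to 0.98 in intercaruncular tissue of pregnant cows (median 0.48) and from -0.74 to 1.22 in that of cyclic cows (median 0.02). The change was 0.29 on the log2 scale (SE 0.23, 1.22-fold, adjusted p = 0.397), which did not pass the threshold. The cyclic cows fell apart by slide. On slide 4 the 4 cyclic cows lay at 0.58, 0.69, 0.89 and 1.22, while the other 6 lay between -0.74 and 0.13 (mean -0.36 ± 0.37, SD, n = 6). The caruncular samples of the same 4 cows lay between -0.63 and -0.24, within the range of the other cyclic cows.

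IFI35 on slide 4 had a mean of -0.59 against -0.93 in the other 6 cyclic cows, with overlap, and the means of the other 5 members on that slide differed from the rest by at most 0.10. Without slide 4 (12 pregnant and 6 cyclic cows), IFITM5 was 0.77 higher in pregnant cows on the log2 scale (SE 0.19, 1.70-fold, adjusted p = 0.0175) and 7 of 7 members were called, where 3.12% of all probes were called higher. Slide 4 was left out after the values were seen. On slide 2, with 3 pregnant cows and 1 cyclic cow, the difference for IFITM5 was 1.28. Whether the slide or the cows set the values on slide 4 was not tested. Without slide 12 (8 pregnant and 10 cyclic cows) 6 of 7 members were called, where 2.87% of all probes were, and the change of IFITM5 was 0.22 (adjusted p = 0.651).

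**Figure D3:**
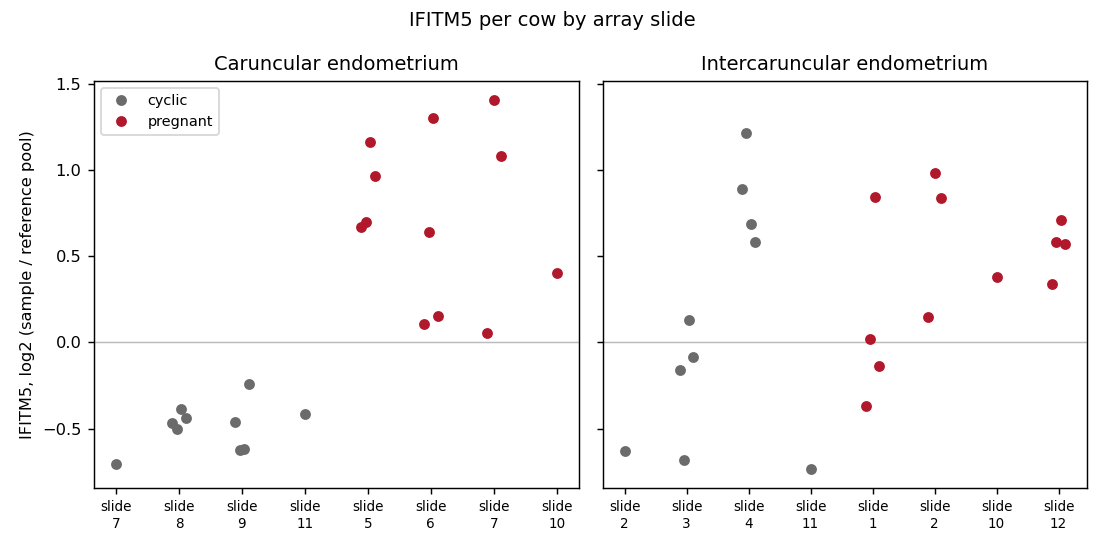
Log2 ratio of IFITM5 in each cow (vertical axis) by the slide that held the array (horizontal axis), with caruncular endometrium on the left and intercaruncular on the right, grey for cyclic and red for pregnant cows. The repeated samples are placed on the slide of their first array. The 4 cyclic intercaruncular samples on slide 4 lie between 0.58 and 1.22, above the other 6 cyclic samples.

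The IFITM3 probe was compared with the other 2 tested probes described as similar to IFITM3. All 3 were higher in pregnant cows in both tissues, and for each every pregnant cow lay above every cyclic cow. A_73_102682 changed by 1.63 in caruncular (SE 0.13) and 1.36 in intercaruncular tissue (SE 0.17) on the log2 scale. A_73_111848 changed by 3.02 (SE 0.19, 8.13-fold) and 2.39 (SE 0.21, 5.23-fold).

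The difference between a pair of probes was taken within each sample and compared between pregnant and cyclic cows by a two-sided permutation test, with 6 comparisons (3 pairs in 2 tissues) adjusted together. In caruncular tissue A_73_111848 changed by 1.08 more than IFITM3 on the log2 scale (SE 0.19, 2.11-fold, adjusted permutation p = 4.0e-05). Its ratio to IFITM3 in 11 of 12 pregnant cows exceeded that in every cyclic cow. In intercaruncular tissue the excess was 0.68 (SE 0.13, 1.60-fold, adjusted permutation p = 0.00012), above every cyclic cow in 9 of 12.

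IFITM3 changed by 0.31 more than A_73_102682 in caruncular tissue (SE 0.073, adjusted permutation p = 0.00086) and by 0.35 more in intercaruncular tissue (SE 0.065, adjusted permutation p = 0.00014). Between A_73_111848 and A_73_102682 the difference of the changes was 1.39 and 1.03 (adjusted permutation p = 4.0e-05 in both tissues, from 2.0e-05, the smallest p these permutations can give). The 3 probes thus gave 3 different sizes of change. The highest sample signal of an array was 115104 units for IFITM3, 60070 for A_73_102682 and 9550 for A_73_111848, and the part of brightness in these differences was not tested.

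**Figure D4:**
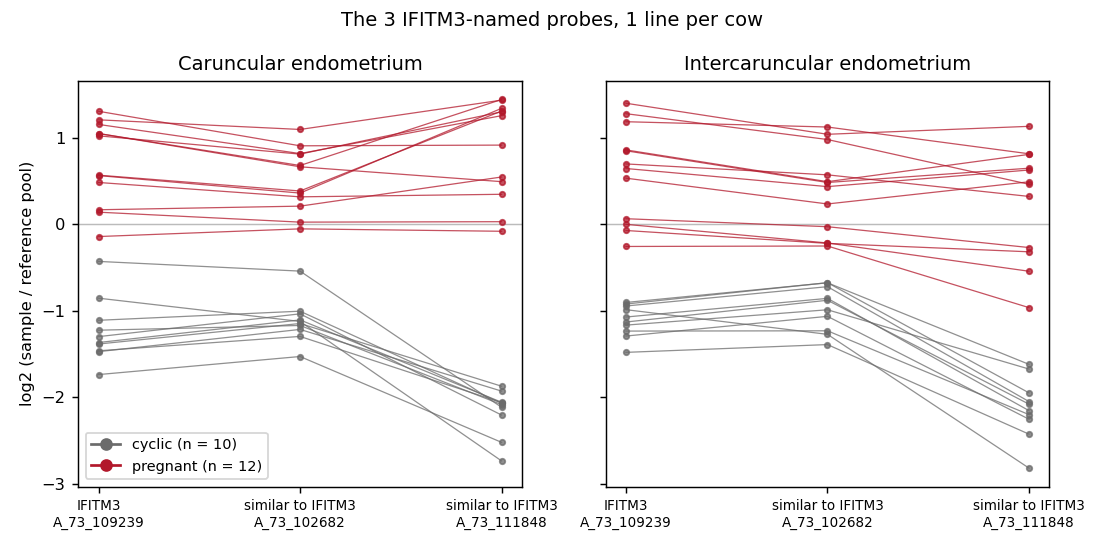
Log2 ratio to the reference pool (vertical axis) for the IFITM3 probe and the 2 probes described as similar to IFITM3 (horizontal axis), with 1 line per cow, grey for cyclic (n = 10) and red for pregnant (n = 12). Caruncular endometrium is on the left and intercaruncular on the right. The lines of cyclic cows drop at A_73_111848, which has the largest change of the 3.

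The tissues were then compared. Slides 10 and 11 held arrays of both tissues. All other caruncular arrays lay on slides 5 to 9, and all other intercaruncular arrays on slides 1 to 4 and 12. These sets were scanned on different dates, so a tissue difference can mostly not be told apart from slide or scan date. A block of cow, used below, does not remove this. The pregnancy effect was larger in caruncular than in intercaruncular tissue for 7 of 7 members, by values from 0.14 for IFITM1 to 0.92 for IFITM5 on the log2 scale. With all 44 samples taken as separate, 0 of 7 passed an adjusted p under 0.05 in limma, where 0.0204% of all probes were called with a larger caruncular change, and 4 of 7 had an unadjusted p under 0.05, where 3.32% of all probes had one with a larger caruncular change. Both tissues came from the same cows. When cow entered the fit as a fixed block, 4 of 7 passed, where 0.653% of all probes did.

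These 4 members were IFI44 with a difference of 0.87 (SE 0.15, adjusted p = 0.00724), IFI16 with 0.75 (SE 0.14, adjusted p = 0.0115), IFI44L with 0.79 (SE 0.15, adjusted p = 0.0128) and IFITM5 with 0.92 (SE 0.20, adjusted p = 0.0313). IFITM1 had the smallest difference (0.14, 95% interval -0.23 to 0.50), followed by IFITM3 (0.24, -0.03 to 0.51) and IFI35 (0.42, 0.18 to 0.65). Without slide 4, 0 of 7 passed with the block in limma, where 0.0136% of all probes did, and 6 of 7 had an unadjusted p under 0.05, where 4.66% of all probes did. IFI44, IFI16 and IFI44L then had differences of 0.85, 0.76 and 0.78, and that of IFITM5 was 0.44 (adjusted p = 0.241).

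Among cyclic cows, 1 of 7 members differed between the tissues, IFITM5, which was lower in caruncular tissue by -0.61 on the log2 scale (SE 0.21, adjusted p = 0.0190), where 18% of all probes were called lower. Without slide 4 its difference was -0.13 (adjusted p = 0.672), where 10.9% of all probes were lower. With cow as a block IFI35 (-0.37, adjusted p = 0.000750) and IFI44L (-0.35, adjusted p = 0.0125) were lower as well, where 28.6% of all probes were, and without slide 4, where 14.2% of all probes were lower, neither passed.

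Among pregnant cows, 2 of 7 members were higher in caruncular tissue, IFI44 by 0.67 (SE 0.14, adjusted p = 0.000103) and IFI16 by 0.64 (SE 0.18, adjusted p = 0.00285), where 21.6% of all probes were higher. In 11 of 12 cows the caruncular sample was the higher for IFI44, for IFI16 and for IFITM5. When cow was a fixed block IFI44L also passed (0.45, adjusted p = 0.000742), where 29.7% of all probes did. IFI35 had nearly the same level in both tissues (0.04, 95% interval -0.24 to 0.33).

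Members varied together among pregnant cows. Over the 21 pairs of members, Pearson's r across the 12 pregnant cows had a median of 0.78 in caruncular tissue (0.44 to 0.96) and 0.80 in intercaruncular tissue (0.60 to 0.98). Across the 10 cyclic cows the medians were 0.20 and 0.32. These are descriptions, since the probes share arrays, slides and the reference pool. Embryo size also varied among the pregnant cows. Pairs of other probes were not set beside these values, which thus say nothing particular to the members.

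A pregnant cow with a high level in one tissue tended to have a high level in the other. For IFITM5 Pearson's r between a cow's 2 tissues was 0.90 (adjusted permutation p = 0.00070) and Spearman's rho 0.92 (adjusted permutation p = 0.00056), over 12 pregnant cows. Without the 2 cows farthest from the caruncular median r was 0.91. IFI44L had r of 0.85 (adjusted permutation p = 0.0053) and rho of 0.92 (adjusted permutation p = 0.00056), with r of 0.75 without 2 cows. For IFITM3 r was 0.80 (adjusted permutation p = 0.012), rho 0.76 (adjusted permutation p = 0.021) and r without 2 cows 0.72.

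Relations were computed for the members alone (7 members in 2 states), so no share of all probes can be set beside their count. Whether other genes relate as closely between the tissues was not tested. Of the 14 relations computed, 6 passed by Pearson's r, all in pregnant cows. The other 3 were IFI35 (0.75, adjusted permutation p = 0.021), IFI16 (0.73, adjusted permutation p = 0.021) and IFITM1 (0.70, adjusted permutation p = 0.023), whose rho was 0.60, 0.78 and 0.56 (adjusted permutation p = 0.099, 0.021 and 0.11). Their r without 2 cows was 0.61, 0.59 and 0.51. IFI44 did not pass (r = 0.41, rho = 0.29, adjusted permutation p = 0.26 and 0.39), and without 2 cows its r was -0.05. By the slide of the first array, cows that shared a slide in one tissue all shared one in the other. The permutations did not keep cows within their slides. After the mean of each slide was subtracted, r ran from 0.53 (IFI44) to 0.95 (IFITM5) over 11 pregnant cows, with no test. No slide held enough cows for a value of its own.

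Across the 10 cyclic cows 0 of 7 relations passed, and whether they differed from those of pregnant cows was not tested. For IFITM3 r was 0.66 and rho 0.59 (adjusted permutation p = 0.068 and 0.12), with r of 0.64 without 2 cows. IFITM1 had r of 0.65 and rho of 0.65 (adjusted permutation p = 0.068 and 0.099), with r of 0.51 without 2 cows. IFI35 had r of 0.61 and rho of 0.71 (adjusted permutation p = 0.096 and 0.076), with r of 0.34 without 2 cows. The other 4 members had r between 0.0086 (IFITM5) and 0.44 (IFI16). After slide means were subtracted, r ran from -0.18 (IFITM5) to 0.88 (IFI35) over 8 cyclic cows, and was 0.79 for IFITM1.

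The 3 other genes whose log2 ratio was most like a member's over the 44 samples were found by Pearson's r. OAS2, an antiviral enzyme that makes oligoadenylate, was among them for 4 members. For IFI44L they were OAS2 (0.99), USP18 (0.99), which removes ISG15 from proteins, and GBP4 (0.99). For IFI16 they were OAS2 (0.98), EPSTI1 (0.98) and the transcript CB530781 (0.98). IFITM1 was most like MYO5A (0.98), an unconventional myosin that moves vesicles, ahead of OAS2 (0.97) and PML (0.97). For IFITM3 PARP9 (0.95) and OAS2 (0.95) were among them. For IFI44 they were SAMD9 (0.98), EPSTI1 (0.98) and C17orf27 (0.98), and for IFI35 ISG20 (0.97), PML (0.97) and TREX1 (0.97). IFITM5 stood nearest to C2 (0.88), a component of complement, FCER1G (0.84), a signalling chain of Fc receptors on leukocytes, and IRF3 (0.83). These correlations pool pregnant and cyclic cows and carry no test.

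Embryo size was compared among the 12 pregnant cows. In caruncular tissue 0 of 7 members passed an adjusted p under 0.05 in limma, where 0% of all probes were called higher with a large embryo, and 3 of 7 had an unadjusted p under 0.05, where 2.89% of all probes had one in that direction. The 7 differences were positive, from 0.25 for IFI44 to 0.97 for IFITM1 on the log2 scale. IFITM3 ran from 0.57 to 1.30 with a large embryo (median 1.05, n = 7), while the 5 cows with a small embryo lay at -0.14, 0.14, 0.17, 0.48 and 0.56. Every large-embryo cow lay above every small-embryo cow for IFITM3 alone, as for 0.136% of all probes, though the nearest 2 cows differed by less than the median difference between repeat arrays. Its difference was 0.81 (SE 0.15, adjusted p = 0.397).

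In intercaruncular tissue 2 of 7 members were higher with a large embryo, where 1.57% of all probes were, and 7 of 7 had an unadjusted p under 0.05, where 10.2% of all probes had one in that direction. IFITM5 lay at -0.37, -0.14, 0.02, 0.15 and 0.34 with a small embryo and between 0.38 and 0.98 with a large one (median 0.71), a difference of 0.70 (SE 0.13, 1.63-fold, adjusted p = 0.0243). IFI16 lay at -0.63, -0.47, -0.13, 0.0077 and 0.15 with a small embryo and between 0.33 and 1.07 with a large one (median 0.57), a difference of 0.85 (SE 0.17, 1.80-fold, adjusted p = 0.0247). For both the groups did not overlap, as for 1.36% of all probes, though for IFITM5 the nearest 2 cows (0.34 and 0.38) differed by less than the median difference between repeat arrays.

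The other 5 members had differences of 0.62 (IFI35 and IFI44) to 1.02 (IFITM1) and adjusted p between 0.0544 and 0.112. The 1 small-embryo cow on slide 12, a fertile cow, was the highest of the 5 small-embryo cows for 7 of 7 members in intercaruncular tissue. For IFITM1 it lay at 1.16, while the other 4 lay between -0.41 and -0.17. It shared that slide with 3 large-embryo cows, and the other 4 small-embryo cows were on slides 1 and 2. For IFITM1 alone the 4 pregnant cows of slide 12 lay wholly above the other 8 in this tissue. Without slide 12 (4 large-embryo and 4 small-embryo cows) the differences of the 7 members ran from 0.65 (IFI35) to 1.08 (IFITM1), and 1 of 7 was called, IFITM1 (adjusted p = 0.0405), where 0.0544% of all probes were. IFITM5 (0.84, adjusted p = 0.0838) and IFI16 (0.90, adjusted p = 0.0954) then did not pass, while 7 of 7 had an unadjusted p under 0.05, where 8.13% of all probes had one in that direction. Slide 12 was left out after the values were seen.

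Leaving out 1 cow moved the count of members called from 0 to 7. The count was 7 without the small-embryo cow of slide 12, where 2.15% of all probes were called higher. It was 5 without the sub-fertile large-embryo cow of slide 10, where 7.12% of all probes were. That cow was the lowest of the 7 large-embryo cows for 5 members and the highest for IFITM3. Its array was the only one of pregnant intercaruncular samples on its scan date. It also had the largest share of spots well above background of all arrays (84.0%). The part of the array in these values was not tested. The count was 0 without any one of 4 cows, the 2 fertile small-embryo cows and the large-embryo cow of slide 1 and the small-embryo cow of slide 2. Adjusted p in limma for IFITM5 and IFI16 then lay between 0.0516 and 0.0713, and between 0.0681% and 0.143% of all probes were called higher. The shares of all probes thus moved as well. Without any one of the other 6 cows the count was 2 or 3, where 0.395% to 0.966% of all probes were called higher. With a fixed slide term 5 of 7 were called, where 4.43% of all probes were. With a random slide term 4 were called, where 2.83% were, and with the fertility label as a covariate 4 were called, where 2.23% were.

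**Figure D5:**
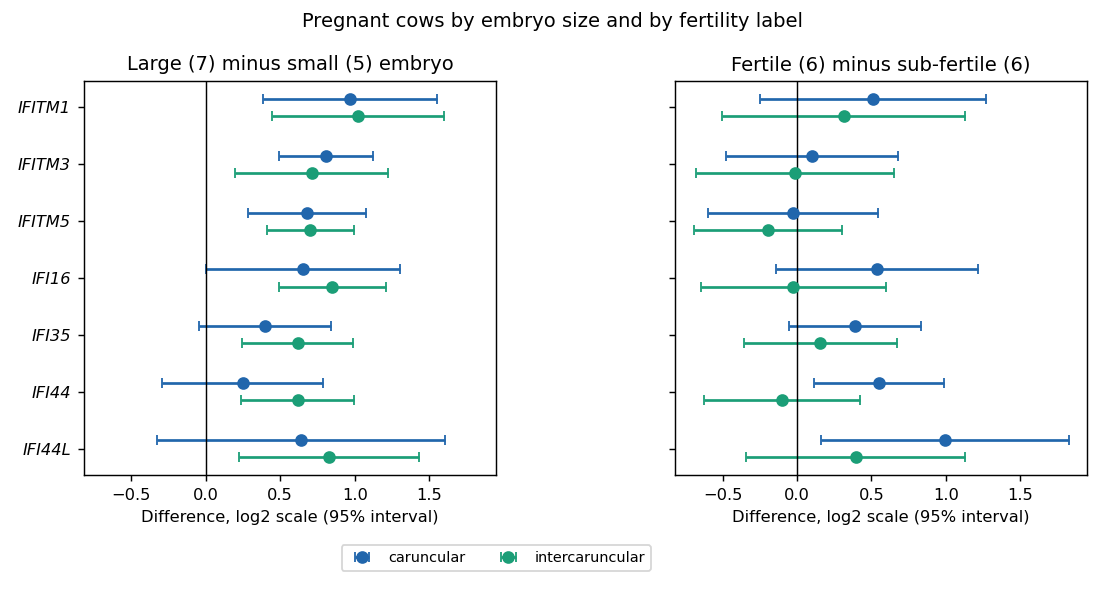
Differences on the log2 scale (horizontal axis) for the 7 members (vertical axis) between cows with a large (n = 7) and a small (n = 5) embryo on the left and between fertile (n = 6) and sub-fertile (n = 6) cows on the right, in caruncular (blue) and intercaruncular (green) endometrium. Points are limma estimates and bars their 95% intervals without adjustment for the number of probes. All differences by embryo size are above 0, and those by fertility label lie on both sides of 0.

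By fertility label 0 of 7 members passed in either tissue in limma, where 0% of all probes in caruncular and 0.0476% in intercaruncular tissue were called in either direction. In caruncular tissue 2 of 7 members, both higher in fertile cows, had an unadjusted p under 0.05, where 6.76% of all probes had one in that direction. IFI44 ran from 0.82 to 1.37 in fertile cows (median 1.32) and from 0.083 to 1.15 in sub-fertile cows (median 0.62), a difference of 0.55 (95% interval 0.11 to 0.99, adjusted p = 0.305). IFI44L ran from 0.41 to 1.60 (median 1.33) and from -0.73 to 1.36 (median 0.06), a difference of 0.99 (95% interval 0.16 to 1.82, adjusted p = 0.314). The fertile and sub-fertile cows overlapped for both. In this tissue the 4 samples on slide 5 were all of fertile cows, of which there were 6. Slide 6 alone held first arrays of both labels, so that fertility label and slide can mostly not be told apart.

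For the other 5 members the caruncular differences lay between -0.03 (IFITM5) and 0.54 (IFI16). In intercaruncular tissue the 7 differences lay between -0.20 (IFITM5) and 0.39 (IFI44L), and 0 of 7 had an unadjusted p under 0.05, where 13.6% of all probes did. Without slide 12, which held 4 of the 6 fertile cows, the 7 differences lay between -0.76 (IFITM1) and -0.35 (IFI44L), and 0 of 7 passed in limma (0 of 7 at an unadjusted p under 0.05), where 0.00681% of all probes were called. The interval for IFITM3 with all cows was -0.68 to 0.65, which includes changes of more than 1.5-fold both ways.

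Other genes of the type I interferon response were counted for comparison, from a list of 52 by role, with 47 on the array by symbol and 41 tested. In caruncular tissue 35 of 41 were called higher and 0 lower (median 2.62 on the log2 scale), and in intercaruncular tissue 34 higher and 0 lower (median 2.20). The largest caruncular changes were those of RSAD2 (5.46), MX2 (4.90) and IFIT3 (4.57), which encode antiviral effectors. The lowest were those of IFNAR1 (-0.26, adjusted p = 0.456), a subunit of the interferon receptor, SAMHD1 (-0.22, adjusted p = 0.312), an enzyme that degrades nucleotides, and JAK1 (-0.10, adjusted p = 0.411), a kinase of the receptor. The medians of the members, 2.63 and 2.02, stood beside those of this list.

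Markers of other cell types were counted as well. Of 15 trophoblast genes with a probe, the 2 tested, PAG1 and HAND1, gave 0 calls in either tissue. Both were well above background on 48 of 48 arrays, those of cyclic cows included, so their signal does not report trophoblast alone. The other 13 probes were well above background on at most 17 of 48 arrays. The probes of interferon tau itself (IFNT and IFNT2) were well above background on 0 of 48 arrays. The summed signal of the 15 probes, PAG1 and HAND1 among them, is for the same reason no measure of trophoblast alone. The sum ranged from 695 to 1086 units in caruncular samples of pregnant cows and from 633 to 1463 in those of cyclic cows. In intercaruncular samples the same sums had medians of 774 in pregnant and 952 in cyclic cows.

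Of 11 leukocyte genes tested 1 was higher in pregnant cows in each tissue, CSF1R, the receptor of a macrophage growth factor, by 0.73 and 0.61 on the log2 scale. The summed signal of 15 leukocyte probes ranged from 20804 to 46041 units in pregnant and from 16276 to 35101 in cyclic caruncular samples, and from 17368 to 38154 and 16679 to 29086 in intercaruncular samples. The part of leukocytes in the changes of the members was not tested.

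Epithelial markers gave 1 call higher and 2 lower of 6 in caruncular and 1 higher in intercaruncular tissue. Stromal markers gave 1 lower of 7 in caruncular tissue, COL3A1, and 3 lower in intercaruncular tissue, COL1A1, COL1A2 and COL3A1. Of all 14695 probes tested, 619 were called lower in caruncular and 478 in intercaruncular tissue. The part of cell types in the changes of the members was not tested. Markers of the endometrium such as PGR and ESR1 gave 1 lower of 6 in each tissue. For IFITM5, 3 bone genes were tested and 0 were called, while the osteoblast genes IBSP and SP7 did not pass the filter.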

How the data were processed

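The 48 arrays covered 44 samples, and the cow was the replicate. The spot intensities were deposited as made by the authors' Agilent Feature Extraction (9.5.3.1 per the file headers), with local background removed, outlying spots marked and both dyes LOWESS-normalized. The deposited log10 ratios of Cy5 to Cy3 were converted to log2, averaged over spots and then over repeat arrays, and centred on the array median. The authors' deposited matrix of log2 values (17876 probes) was an alternative. A probe entered the tests when 22 or more samples had an intensity of 80 units or more that was well above background. Pregnancy, embryo size, fertility label and tissue were tested by limma 3.58.1 (lmFit, eBayes; R 4.3.3) with Benjamini-Hochberg adjustment over 14695 probes. Pregnancy was called at 1.5-fold or more and an adjusted p under 0.05, the others at an adjusted p under 0.05 alone. Probe pairs and relations between tissues were tested with 100000 permutations (scipy 1.17.1). The limma fit of pregnant against cyclic cows and the permutation tests were tried on simulated data with known answers.

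Both tissues came from the same cow by the labels, which pairs the samples. Deviations from the group means correlated between a cow's tissues in 22 of 22 cows (r 0.11 to 0.87, median 0.61, over probes). No r between the tissues of different cows is given beside these, so they do not test the pairing. The part of shared slides in them was not tested. The number of cows limits the precision. The genes named are all members, the 3 most alike by r (1 is not reported here), and the 3 largest and 3 lowest of the interferon list. A listed gene with several probes was counted by its brightest. The members and lists were chosen with earlier results of these data known. Alternatives were loess after normexp (offset 50), values left uncentred, filters that were stricter or absent, Welch's form of the methods' test, the first or repeat array alone, slide or scan date as a block, the cow as a block, label covariates and each pregnant cow left out. Promoter motifs were not searched, since no promoter sequences were used here.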

Additional observations from a re-analysis of the deposited data

Results flagged for a closer look

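Values were taken in 70 groups of 5 to 10 cows (7 members in 2 tissues, in cyclic cows and by embryo size and fertility label). In 8 groups 1 cow stood far from the rest by Dixon's test at 95%. For independent groups chance gives about 1 in 20. These groups share cows, and the members varied together, so the 8 cannot be set against that rate. In intercaruncular tissue the small-embryo cow of slide 12 was far above the other small-embryo cows for IFITM1 (1.16, next -0.17), IFITM3 (1.18, next 0.06) and IFI35 (0.41, next -0.25). The large-embryo cow of slide 10 was far below the other large-embryo cows for IFI35 (-0.20, next 0.35) and IFI44 (0.33, next 0.91) in caruncular tissue and for IFI44L in intercaruncular tissue (-0.45, next 0.55). A sub-fertile cow of slide 7 was low for IFITM3 among large-embryo cows in caruncular tissue (0.57, next 1.02). A small-embryo cow was low for IFI35 among fertile cows in caruncular tissue (-0.16, next 0.37).

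The pregnancy effect differed between the tissues, in a fit with cow as the replicate block, for IFITM5 (0.92), IFI44L (0.79), IFI16 (0.75) and IFI44 (0.87), each larger in caruncular tissue on the log2 scale. Without slide 4 the same fit gave 0 of 7 members at an adjusted p under 0.05 in limma, where 0.0136% of all probes passed, with 6 of 7 at an unadjusted p under 0.05, where 4.66% of all probes did.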

How the results depend on the processing

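The count of members called moved with the setting as follows. With the slide as a fixed block, 2 were called for pregnancy in caruncular tissue. For embryo size in intercaruncular tissue, 4 were called with the slide as a random block, 5 with it as a fixed block, 4 with the fertility label as a covariate, 0 to 7 with 1 cow left out and 1 without slide 12. With the cow as a replicate block, random or fixed, the difference between the tissues was called for 4 members. The tissue difference in cyclic cows was called for 2 with the repeat array alone, 2 with the cow as a random block, 3 with it as a fixed block and 0 without slide 4, with or without the block. In pregnant cows 4 were called with the cow as a random block. The block changed no other count by over 1.5 times. The causes were not tested. With the cow as a fixed block, 28.6% of all probes were called lower in caruncular tissue of cyclic cows. In pregnant cows 29.7% were called higher there. Shares of all probes are not given for the random cow block or the repeat array alone, so those counts say nothing particular to the members.

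Some changes that passed no threshold turned sign. With the slide as a fixed block, the fertility difference was -0.18 for IFITM3 in caruncular tissue. In intercaruncular tissue it was -0.59 for IFITM1, -0.37 for IFI35 and -0.30 for IFI44L. That fit rests on slide 6 in caruncular and slide 1 in intercaruncular tissue, the only slides with first arrays of both labels. Without slide 12 the fertility difference was -0.76 for IFITM1, -0.42 for IFI35 and -0.35 for IFI44L. With embryo size as a covariate it was 0.089 for IFITM5 in caruncular and 0.11 for IFITM3 and 0.12 for IFI16 in intercaruncular tissue, and with normexp 0.00342 and 0.00777 for the latter 2. The tissue difference of IFITM1 in cyclic cows was 0.00137 with the repeat array alone, 0.027 without slide 4 and 0.064 without slide 4 with the block, and that of IFI16 was 0.064 with the deposited matrix. In 104 further settings the counts kept within 1.5 times or on their side of the threshold. Slides 4 and 12 were left out after seeing the data.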
